A study of Rattus norvegicus with 42 samples.

Results

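Foxp2, Bnc2, Tbx18 and Capn6 are 4 of the 14218 genes named on the array, and they were chosen by symbol because their signal was lower with LIF or with the ANX fraction in these same data. Each is read by 1 probe set, and all 4 passed the filter on low signal that left 11388 genes for testing. They were measured in rat metanephric mesenchyme, the embryonic tissue that gives rise to the nephrons and stroma of the kidney, microdissected at embryonic day 13.5 and freed from the ureteric bud with trypsin, DNase and pins. The series has 42 Affymetrix Rat Genome 230 2.0 arrays in 21 groups of 2 biological replicates.

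One group was fresh tissue (day 0). The cultured groups were mesenchyme without an inducer on days 1 and 2 (called control here) and mesenchyme with LIF (leukaemia inhibitory factor), NGAL (neutrophil gelatinase-associated lipocalin) or the ANX fraction on days 1, 2, 3, 4, 5 and 7. All cultures grew on collagen-coated transwell filters in DMEM/F12 medium that contained dexamethasone, insulin, selenium and transferrin, with T3, prostaglandin and recombinant FGF and TGF, so the controls received these agents too. The fresh tissue was taken to RNA directly and had none of them. What the ANX fraction contains, the strain and the number of embryos per sample are not given in the sources used here. No culture without an inducer was sampled after day 2, so from day 3 on LIF and ANX can be set only against NGAL or against each other.

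The early metanephric mesenchyme holds progenitors of the nephron and progenitors of the stroma, the connective tissue cells that come to surround nephrons, vessels and ureter. An inducing signal makes nephron progenitors condense and turn into epithelium, while stromal cells keep a mesenchymal character and make matrix proteins. Foxp2 is a forkhead transcription factor best known for its part in speech and vocal learning. Bnc2 is a basonuclin zinc-finger protein found in mesenchymal cells. Tbx18 is a T-box factor that marks the mesenchyme around the ureter and is needed for ureteric smooth muscle. Capn6 is a calpain without the catalytic cysteine that stabilizes microtubules.

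By RefSeq gene records on assembly GRCr8, Foxp2 lies on chromosome 4 at 44099848 to 44677700, Bnc2 on chromosome 5 at 103724934 to 104061890, Tbx18 on chromosome 8 at 97531960 to 97559988 and Capn6 on chromosome X at 112177467 to 112202178. The sources used here do not say which exon or untranslated region each probe set reads. The RefSeq promoter table, which gives 250 bases before and 50 bases after a start site, holds 3 of the 4 members, with a pair of start sites for Bnc2. The sequences below, 5′ to 3′ on the minus strand of each gene, are shown because Bnc2 and Capn6 were both low on days 1 and 2 with LIF and ANX while Tbx18 was not, so that their start regions can be compared. Capitals mark matches to any of 6 motifs searched on both strands.
Bnc2, inner start, GRCr8 chr5:104008123-104008422, minus strand: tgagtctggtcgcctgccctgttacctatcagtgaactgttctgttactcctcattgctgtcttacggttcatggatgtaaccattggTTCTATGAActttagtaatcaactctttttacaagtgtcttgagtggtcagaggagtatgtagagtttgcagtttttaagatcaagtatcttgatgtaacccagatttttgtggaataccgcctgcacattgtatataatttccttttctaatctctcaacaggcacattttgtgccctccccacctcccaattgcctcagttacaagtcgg
Capn6, GRCr8 chrX:112202129-112202428, minus strand: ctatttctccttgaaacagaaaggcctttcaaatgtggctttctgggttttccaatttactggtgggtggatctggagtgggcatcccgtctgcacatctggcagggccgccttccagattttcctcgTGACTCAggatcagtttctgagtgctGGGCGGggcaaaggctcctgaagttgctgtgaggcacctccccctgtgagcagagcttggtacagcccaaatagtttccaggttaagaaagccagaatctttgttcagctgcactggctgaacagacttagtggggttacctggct
Tbx18, GRCr8 chr8:97559916-97560215, minus strand: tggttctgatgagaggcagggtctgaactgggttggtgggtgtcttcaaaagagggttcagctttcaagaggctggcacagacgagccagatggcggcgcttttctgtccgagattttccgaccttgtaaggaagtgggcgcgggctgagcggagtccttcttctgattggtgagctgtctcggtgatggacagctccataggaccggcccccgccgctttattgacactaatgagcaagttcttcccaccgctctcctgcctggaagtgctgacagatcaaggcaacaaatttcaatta

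The motifs were STAT (TTCNNNGAA), AP-1 (TGANTCA), GC box (GGGCGG), the TATA motif spelled TATAAA, the TEAD motif spelled CATTCC and the T-box motif spelled GGTGTG, none of which overlapped in these windows. The inner Bnc2 window holds a STAT match from -162 to -154 relative to the start site, a motif present in 8.87% of 33469 promoters of this length. The Capn6 window holds an AP-1 match from -122 to -116 and a GC box from -96 to -91, motifs present in 7.33% and 33.1% of promoters. The Tbx18 window and the outer Bnc2 window (chr5:104061841-104062140, not printed here) hold none of the 6. Which Bnc2 start was in use in these cultures was not measured. The remaining motifs are in 14.2% (TATA), 14.2% (TEAD) and 17.9% (T-box) of promoters. The GC content is 41.7% in the inner Bnc2 window, 36% in the outer one, 52% in Capn6 and 54% in Tbx18, beside a median of 51.7% over all promoters. A match describes letters in a window and no site was measured.

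Levels are log2 of the RMA intensity, and values are given as replicate 1 and then replicate 2. A group mean under 5.79 (intensity 55.2), the 40th percentile of all values, is called below the detection threshold, and a difference that rests on such group means is also given with each low mean set to the threshold ("floored"). Array medians ran from 83.3 to 88.4 in intensity. The log2 3′ to 5′ ratio of the spiked dap transcript ran from 0.77 to 2.35 over the arrays and the log2 signal of 5S ribosomal RNA from 6.3 to 10.32. Both measures had their highest group mean in control day 2, at 2.0 and 10.21. Fresh tissue had means of 1.07 and 6.47. Tests are limma with Benjamini-Hochberg adjustment over all 11388 genes, called at an adjusted p under 0.05. Because the members were picked for their fall, their differences of LIF and ANX from other cultures are described with the standard error of the fit (SE) and carry no test. The control and NGAL arrays also entered the differences by which the genes were picked, and a pick for low values with LIF or ANX favours high values there. The members' tests of control against fresh tissue, of NGAL against control and between NGAL days are therefore not independent of the choice. Neither are their tests between LIF days, between ANX days and of such changes between cultures, since those arrays may have entered the pick too.

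**Figure D1:**
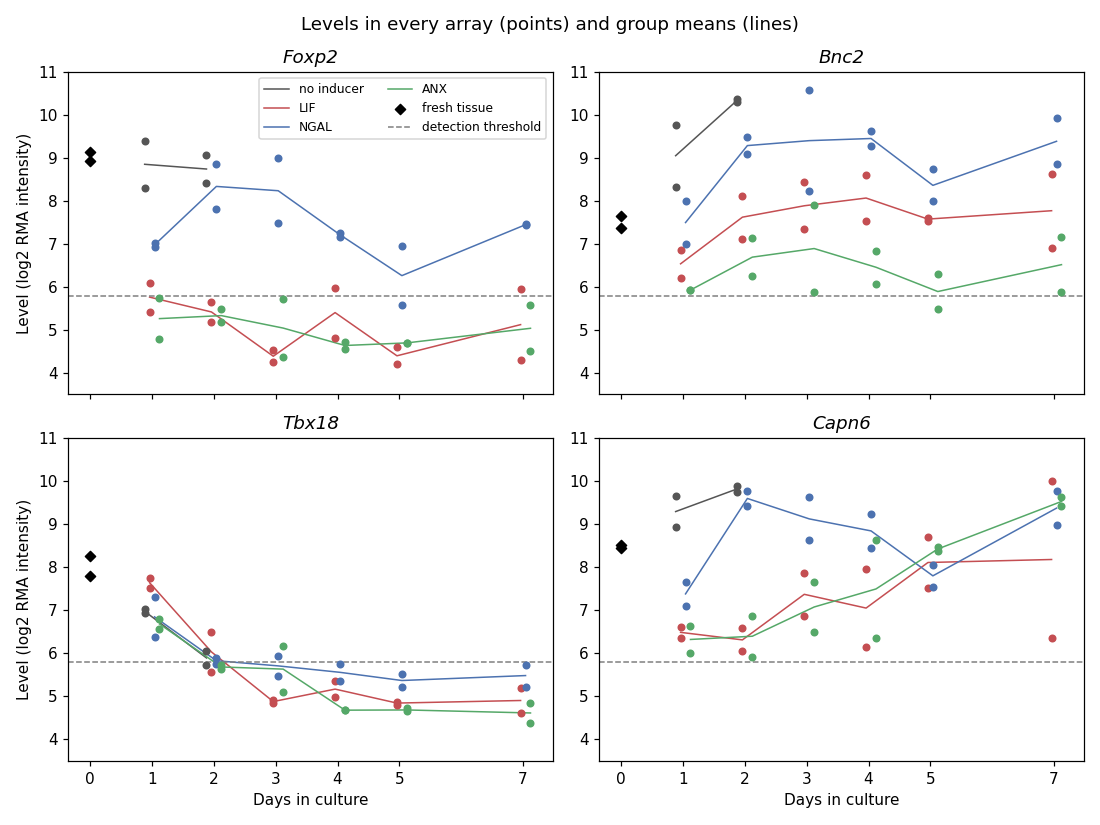
Levels of the 4 genes (log2 RMA intensity) against days in culture, with 1 point per array, lines through group means, diamonds for fresh tissue and a dashed line at the detection threshold of 5.79. Foxp2 lies near or below the threshold in the LIF and ANX cultures from day 1, Tbx18 is lower on later days in all cultures, and Capn6 is low on days 1 and 2 with LIF and ANX and reaches 9.63 and 9.44 with ANX on day 7.

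Foxp2 was the member with the clearest separation between cultures. Fresh tissue stood at 9.13 and 8.92, control day 1 at 9.39 and 8.31, and control day 2 at 8.42 and 9.06. These 6 arrays overlapped, and neither control day 1 (log2 difference from fresh -0.18, SE 0.58, limma adjusted p = 0.875) nor control day 2 (-0.29, SE 0.58, adjusted p = 0.751) passed the test.

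With LIF, Foxp2 read 5.42 and 6.10 on day 1, 5.19 and 5.64 on day 2, 4.24 and 4.53 on day 3. Later LIF values were 4.82 and 5.98 on day 4, 4.59 and 4.20 on day 5 and 4.29 and 5.95 on day 7. With ANX it read 4.79 and 5.73, 5.17 and 5.49, 4.36 and 5.72, 4.71 and 4.56, 4.69 and 4.70, and 4.50 and 5.57 on days 1, 2, 3, 4, 5 and 7. Of these 24 arrays 21 were below the threshold, and the highest of them, 6.10, was under the lowest control array, 8.31.

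Over days 1 and 2 Foxp2 was lower than control by -3.20 with LIF (SE 0.41, 4 arrays against 4, floored -3.0) and by -3.50 with ANX (SE 0.41, floored -3.0). LIF and ANX were set against the same 4 control arrays, here and for every member. The LIF and ANX differences were -3.08 and -3.59 on day 1 alone (both -3.06 when floored) and -3.32 and -3.40 on day 2 alone (both -2.95 when floored). In these contrasts 24% of tested genes were called with LIF (11.4% higher, 12.6% lower) and 20.3% with ANX (11.2% higher, 9.12% lower), shares that describe the background and say nothing of a gene picked from them. In whole tissue, fewer cells with a transcript and less RNA per cell cannot be told apart, for this and for every gene below.

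Most NGAL arrays had Foxp2 between the control arrays and the LIF and ANX arrays. It read 6.92 and 7.03 on day 1, 7.81 and 8.86 on day 2, 8.99 and 7.48 on day 3, 7.17 and 7.25 on day 4, 5.58 and 6.94 on day 5, and 7.46 and 7.43 on day 7. Against control, days 1 and 2 gave -1.13 (SE 0.41, adjusted p = 0.54), and no tested gene passed in that contrast (percent called 0; the lowest adjusted p was 0.101, and 799 genes had p under 0.05 before adjustment). Day 1 alone gave -1.87 (SE 0.58, adjusted p = 0.312), with both NGAL arrays under both control arrays and 0.0176% of tested genes called. Day 2 alone gave -0.40 (SE 0.58, adjusted p = 1), and there the arrays overlapped.

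From day 3 to day 7 Foxp2 was lower than with NGAL by -2.46 with LIF (SE 0.29, floored -1.50, 8 arrays against 8) and by -2.43 with ANX (SE 0.29, floored -1.50). The highest LIF and ANX arrays of those days, 5.98 and 5.72, overlapped with 1 NGAL array, 5.58 on day 5. LIF and ANX differed from each other by -0.03 (SE 0.29), with both means under the threshold, in a contrast where 2.26% of tested genes were called. In the order of the 21 group means, fresh tissue (9.03), control day 1 (8.85), control day 2 (8.74), NGAL day 2 (8.33) and NGAL day 3 (8.23) came first and overlapped with their neighbours. NGAL days 7, 4, 1 and 5 followed at 7.44, 7.21, 6.98 and 6.26, and the 12 LIF and ANX groups filled the lower end, from LIF day 1 (5.76) to LIF day 3 (4.39). Replicates of neighbouring groups did not overlap in 3 of 20 steps, namely from NGAL day 3 to day 7, from NGAL day 7 to day 4 and from NGAL day 4 to day 1.

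Bnc2 rose in culture without an inducer and was lower with LIF and lower still with ANX. Fresh tissue had 7.64 and 7.36, control day 1 had 9.77 and 8.33, and control day 2 had 10.38 and 10.31. A pick for low values with LIF or ANX favours high control values, so the tests against fresh tissue are not independent of it. The change from fresh tissue to control day 2 was 2.84 (SE 0.72, adjusted p = 0.00728, 2 arrays against 2), in a contrast where 22.2% of tested genes were called, 9.47% upward. Without fresh replicate 2 it was 2.70 with adjusted p = 0.0622, and without control day 2 replicate 1 it was 2.81 with adjusted p = 0.0564, so the call rests on these arrays. Control day 2 also had the highest dap ratio and 5S signal, and with the dap ratio in the fit the change was 1.96 (adjusted p = 0.0363). By day 1 the change was 1.55 (SE 0.72, adjusted p = 0.199), with both control arrays above both fresh arrays.

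With LIF, Bnc2 read 6.21 and 6.86 on day 1, 7.12 and 8.12 on day 2, 8.43 and 7.34 on day 3. It then read 7.52 and 8.61 on day 4, 7.61 and 7.54 on day 5 and 6.91 and 8.63 on day 7. With ANX the values were 5.93 and 5.92, 6.25 and 7.13, 5.88 and 7.90, 6.07 and 6.84, 6.29 and 5.49, and 5.87 and 7.16 on days 1, 2, 3, 4, 5 and 7. The 8 LIF and ANX arrays of days 1 and 2 (at most 8.12) lay under the 4 control arrays (at least 8.33), and LIF on days 2 to 7 had returned to the range around fresh tissue.

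Bnc2 differed from control over days 1 and 2 by -2.62 with LIF (SE 0.51) and by -3.39 with ANX (SE 0.51). With the dap ratio in the fit the differences were -2.33 and -3.0. Against NGAL on days 3 to 7 they were -1.33 with LIF (SE 0.36) and -2.71 with ANX (SE 0.36), and LIF was above ANX by 1.39 (SE 0.36). Bnc2 is thus the member in which LIF and ANX cultures lay furthest apart on those days, with all LIF arrays at 6.91 or more and 6 of the 8 ANX arrays under that level.

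NGAL cultures had Bnc2 at 8.0 and 6.99 on day 1, 9.48 and 9.09 on day 2, 10.58 and 8.22 on day 3, 9.63 and 9.27 on day 4, 7.99 and 8.73 on day 5, and 9.92 and 8.85 on day 7. Day 1 was the lowest NGAL group and lay around fresh tissue. Neither the difference from control (-1.31, SE 0.51, adjusted p = 0.598) nor that of day 7 from day 1 (1.89, SE 0.72, adjusted p = 0.0773) passed the test. Control day 2 headed the order of group means at 10.35, and ANX day 5 closed it at 5.89. Replicates of neighbours did not overlap in 2 of 20 steps.

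Tbx18 behaved differently from the other 3: it fell from fresh tissue to culture without inducer, and it was not lower with LIF than in control on days 1 and 2. From day 1 to day 7 its group mean fell with NGAL (6.85 to 5.48), LIF (7.65 to 4.91) and ANX (6.68 to 4.62). Only the NGAL change was tested, and the day 7 means were below the threshold. Fresh tissue had 8.26 and 7.79, control day 1 had 6.93 and 7.03, and control day 2 had 6.06 and 5.73. The fall from fresh tissue to control day 2 was -2.13 (SE 0.32, adjusted p = 7.81e-05) and stayed called when any 1 of the 4 arrays was left out. In that contrast 12.7% of tested genes were called downward. As for Bnc2, the test is not independent of how the gene was picked. On day 1 the difference was -1.04 (SE 0.32, adjusted p = 0.0529, both control arrays under both fresh arrays), in a contrast with 6.06% of genes called. That adjusted p was 0.0461 after a further quantile normalization and 0.0372 with the dap ratio in the fit.

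On day 1 with LIF, Tbx18 was at 7.76 and 7.53, above both control arrays and just under both fresh arrays. Later LIF arrays had 5.57 and 6.50 on day 2, 4.92 and 4.84 on day 3, 4.99 and 5.35 on day 4, 4.88 and 4.81 on day 5, and 4.62 and 5.19 on day 7. With ANX it read 6.80 and 6.57, 5.74 and 5.63, 5.10 and 6.17, 4.68 and 4.68, 4.72 and 4.65, and 4.39 and 4.84. From day 3 on, all 8 LIF arrays and 7 of 8 ANX arrays were below the threshold.

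Over days 1 and 2 the LIF cultures differed from control by 0.40 (SE 0.23), with 0.67 (SE 0.32) on day 1 and 0.14 (SE 0.32) on day 2, and the ANX cultures by -0.25 (SE 0.23, floored -0.20). Against NGAL on days 3 to 7 the differences were -0.58 with LIF (SE 0.16) and -0.63 with ANX (SE 0.16). Both are 0 when floored, since the mean over those days was 5.53 with NGAL, 4.95 with LIF and 4.90 with ANX, all under the threshold. In that range the array gives only a bound. The days and the reference on which this gene's lower signal was judged when it was picked are not stated.

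With NGAL, Tbx18 read 6.39 and 7.31, 5.76 and 5.90, 5.94 and 5.48, 5.75 and 5.37, 5.21 and 5.53, and 5.74 and 5.23 on days 1, 2, 3, 4, 5 and 7. Day 7 was lower than day 1 by -1.37 (SE 0.32, floored -1.06, adjusted p = 0.00584), where 15.5% of tested genes were called, 6.92% upward and 8.6% downward. Without NGAL day 1 replicate 2 the difference was -0.90 (adjusted p = 0.166). The NGAL arrays of days 1 and 2 differed from control by -0.10 (SE 0.23, adjusted p = 0.947). Fresh tissue (8.02), LIF day 1 (7.65) and control day 1 (6.98) headed the order without overlap between neighbours, and ANX days 5, 4 and 7 closed it at 4.69, 4.68 and 4.62. In all, 4 of 20 neighbouring pairs did not overlap, and 13 of the 21 group means were below the threshold.

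Capn6 was low on days 1 and 2 with LIF and ANX, and its group means were higher on days 5 and 7 in both. With LIF, replicate 1 of day 7 stayed at 6.35. Neither change from days 3 and 4 to days 5 and 7 passed the limma test. Fresh tissue had 8.46 and 8.52, control day 1 had 9.67 and 8.93, and control day 2 had 9.76 and 9.90. Neither day differed from fresh tissue past the threshold (0.81, SE 0.80, adjusted p = 0.568 on day 1 and 1.34, SE 0.80, adjusted p = 0.229 on day 2), although all control arrays were above both fresh arrays.

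With LIF, Capn6 stood at 6.37 and 6.61 on day 1, 6.05 and 6.58 on day 2, 6.87 and 7.88 on day 3, 6.14 and 7.97 on day 4, 7.53 and 8.70 on day 5, and 6.35 and 10.02 on day 7. The LIF day 7 replicates lay 3.67 apart, the widest replicate gap of any member, from near the lowest to the highest level of the gene. With ANX, Capn6 stood at 6.02 and 6.63, 5.92 and 6.88, 6.50 and 7.66, 6.37 and 8.63, 8.39 and 8.47, and 9.63 and 9.44 on days 1, 2, 3, 4, 5 and 7. All 4 ANX arrays of days 5 and 7 were at 8.39 or more, and every ANX array of days 1 and 2 was at 6.88 or less.

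Capn6 differed from control over days 1 and 2 by -3.16 with LIF (SE 0.57) and by -3.20 with ANX (SE 0.57), with no overlap between the 8 arrays (at most 6.88) and the 4 controls (at least 8.93). Against NGAL on days 3 to 7 the differences were -1.11 with LIF (SE 0.40) and -0.65 with ANX (SE 0.40), and all 3 kinds of culture overlapped. When any 1 array was left out, the LIF difference ranged from -1.57 to -0.65 and the ANX difference from -0.93 to -0.37. LIF and ANX differed by -0.46 (SE 0.40).

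Within the ANX cultures Capn6 was higher on days 5 and 7 than on days 3 and 4 by 1.69 (SE 0.57, adjusted p = 0.156), in a contrast with 1.26% of tested genes called. The same difference was 0.94 with LIF (SE 0.57, adjusted p = 0.909) and -0.40 with NGAL (SE 0.57, adjusted p = 0.92), where 0.167% and 1.11% were called. The ANX change exceeded the NGAL change by 2.09 (SE 0.80, adjusted p = 0.674), a pair singled out after its values were seen. For Capn6, neither this nor the LIF minus NGAL (1.33, SE 0.80, adjusted p = 0.999) and LIF minus ANX changes (-0.76, SE 0.80, adjusted p = 1) passed, where 0.0263%, 0% and 0.00878% of tested genes were called. The late changes of Foxp2, Bnc2 and Tbx18 did not pass either, with adjusted p of 0.336 or more. With NGAL, Capn6 read 7.10 and 7.67, 9.79 and 9.42, 8.63 and 9.63, 8.46 and 9.24, 7.55 and 8.06, and 8.99 and 9.77. Day 1 was the lowest NGAL group, and day 7 was 1.99 above it (SE 0.80, adjusted p = 0.0918). The difference of NGAL from control was -1.07 (SE 0.57, adjusted p = 0.729), with -1.92 on day 1 (adjusted p = 0.541) and -0.23 on day 2 (adjusted p = 1). Control day 2 (9.83), NGAL day 2 (9.60) and ANX day 7 (9.53) headed the order of group means, LIF day 2 (6.32) closed it, and the replicates of all 20 neighbouring pairs overlapped.

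**Figure D2:**
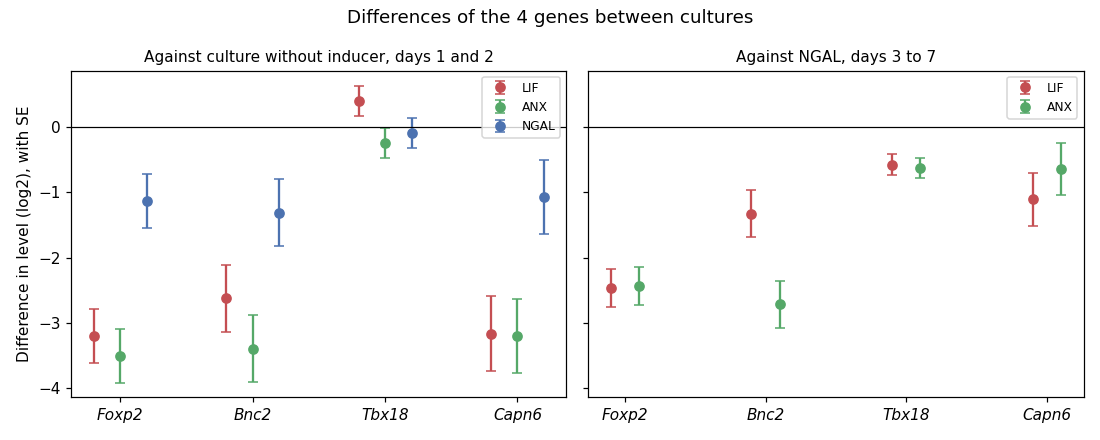
Differences in level of the 4 genes (log2) with the standard error of the fit, for LIF, ANX and NGAL against culture without inducer on days 1 and 2 (left) and for LIF and ANX against NGAL on days 3 to 7 (right). Foxp2, Bnc2 and Capn6 lie between -3.50 and -2.62 with LIF and ANX on the left, whereas Tbx18 lies at 0.40 and -0.25.

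The members varied more between replicates than most genes. The pooled replicate SD was 0.62 for Foxp2, 0.78 for Bnc2, 0.34 for Tbx18 and 0.86 for Capn6, at percentiles 97.1, 99, 84.9 and 99.3 of the tested genes. Replicate 2 had the higher Capn6 level in 18 of 21 groups. Deviations from the group mean correlated with those of the dap ratio over the 42 arrays at r = 0.511 for Foxp2, 0.614 for Bnc2, 0.241 for Tbx18 and 0.447 for Capn6, a description over arrays that share groups and RNA handling. The 2 deviations of each group mirror each other. The replicate with the higher dap ratio also had the higher level in 11 (Foxp2), 15 (Bnc2), 11 (Tbx18) and 12 (Capn6) of 21 groups. The dap ratio is read on a spiked transcript, so the part of tissue RNA quality in the differences was not tested. With this ratio fitted, LIF and ANX differed from control on days 1 and 2 by -3.24 to -2.33 for Foxp2, Bnc2 and Capn6.

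Across the 21 group means, which share arrays and normalization, Foxp2 correlated with Bnc2 at r = 0.723, with Capn6 at 0.613 and with Tbx18 at 0.573. Bnc2 and Capn6 correlated at 0.646. Tbx18 was nearly uncorrelated with Bnc2 (0.0361) and with Capn6 (-0.158). The members were picked for lower signal with LIF or ANX, which by itself favours positive correlations between them. The 3 genes most like Foxp2 were Dact1, a modulator of Wnt signalling (r = 0.973), Gulp1, an adaptor for engulfment (0.967) and Slc40a1, the iron exporter ferroportin (0.961). Dact1 had a median of 9.75 in control, 9.24 with NGAL, 7.17 with LIF and 7.23 with ANX. Most like Bnc2 were Gas6, a ligand of the TAM receptors (0.951), Zeb1, a mesenchymal zinc-finger factor (0.942) and Tyrobp, a myeloid signalling adaptor (0.934), whose signal of 4.97 to 6.65 lay around the threshold. Tbx18 was followed most closely by E2f5 (0.931), Samd14 (0.923) and Armh4 (0.917), and Capn6 by Zfp317 (0.912), Ablim1 (0.911) and Fig4 (0.909).

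Relatives of the members were measured in the same contrasts. Of the Foxp and basonuclin relatives, Foxp1 and Foxp4 were measured and Bnc1 was below the threshold in every group. Foxp1 differed from control by -0.17 with LIF (SE 0.17, adjusted p = 0.492) and fell with ANX by -0.58 (SE 0.17, adjusted p = 0.0179). Without control day 1 replicate 1 that fall was -0.51 (adjusted p = 0.0925), leaving out control day 2 replicate 1 gave -0.53 (0.0685), ANX day 1 replicate 2 -0.56 (0.0502) and ANX day 2 replicate 1 -0.54 (0.0713). Day 1 alone gave -0.73 (adjusted p = 0.0677) and day 2 alone -0.44 (0.298). Foxp4 differed by -0.01 with LIF (SE 0.15, adjusted p = 0.977) and by -0.20 with ANX (SE 0.15, adjusted p = 0.349). Foxp1 was higher in control day 2 than in fresh tissue by 0.67 (SE 0.24, limma adjusted p = 0.0485, just under the limit of 0.05). Against fresh tissue, Foxp4 fell by 0.85 in control day 2 (SE 0.21, adjusted p = 0.00611), a call lost without fresh replicate 1 (-0.74, adjusted p = 0.0717) or control day 2 replicate 1 (-0.82, adjusted p = 0.0536).

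Of all tested genes, 24% with LIF and 20.3% with ANX were called against control, and 39% and 36% against NGAL on days 3 to 7. Of the T-box relatives 4 were measured (Tbx2, Tbx3, Tbx19 and Mga), and Tbx4, Tbx5, Eomes and Tbr1 were below the threshold in every group. With ANX none of the 4 passed against control or NGAL (limma; 0 calls in each, and 1 of 4 when some single arrays were left out). With LIF 1 of the 4, Tbx19, passed in each of these contrasts, and the median differences of the family were 0.13 and 0.06. Against control that call remained only without LIF day 1 replicate 2 when single arrays were left out, and against NGAL it was lost without replicate 1 of any LIF day or replicate 2 of any NGAL day. Of the calpain family 9 were measured, and Capn3, Capn9 and Capn13 were below the threshold in every group. Against control 1 of 9 passed with each of LIF and ANX, Capn10, at 0.35 (SE 0.12, adjusted p = 0.0352) and 0.46 (SE 0.12, adjusted p = 0.00857). The LIF call was lost when 1 of 6 of its 8 arrays was left out and the ANX call without control day 1 replicate 1 (0.38, adjusted p = 0.0658). Neither passed on a single day, with values of 0.21 and 0.48 for LIF and 0.42 and 0.49 for ANX on days 1 and 2. Against NGAL on days 3 to 7, LIF cultures were lower in 4 of 9, the calpain inhibitor Cast (calpastatin, -1.63, SE 0.28, adjusted p = 8.9e-05), Capn1 (-0.42, SE 0.08, adjusted p = 0.000303) Capn2 (-0.50, SE 0.12, adjusted p = 0.00237) and the small subunit Capns1 (-0.28, SE 0.07, adjusted p = 0.00213). ANX cultures were lower in 2 of 9, Cast (-1.06, SE 0.28, adjusted p = 0.00548) and Capn2 (-0.42, SE 0.12, adjusted p = 0.00975), and higher in 1. Beside these counts, 18.7% of all tested genes were lower with LIF and 14.8% with ANX, and 21.2% were higher with ANX.

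Genes of the renal stroma moved in the same contrasts. Of 22 genes on a list of stromal regulators and matrix genes, 19 were measured, and Foxd1, a defining gene of renal stroma, was not analysed here. This list, like the others, was chosen with earlier results of these data known. The median with LIF against control on days 1 and 2 was -1.08, beside 0.03 over all genes. In that contrast 11 of 19 were lower and none higher, beside 12.6% and 11.4% of all tested genes. The count was 7 without LIF day 2 replicate 1 and 8 to 10 without any other of the 8 arrays. Aspn, a small matrix proteoglycan, differed by -3.38 (SE 0.52, adjusted p = 7.9e-05, floored -1.49), with every LIF array under the threshold. Aspn was also under the threshold in fresh tissue (3.67 to 3.70) and read 6.61 to 7.89 in control. Rarb, a retinoic acid receptor, differed by -1.51 (SE 0.25, adjusted p = 0.000179). It was already lower in control day 2 than in fresh tissue, by -1.82 (SE 0.35, limma adjusted p = 0.000949). The collagen gene Col1a2 differed from control by -1.68 (SE 0.33, adjusted p = 0.00092, with -1.31 and adjusted p = 0.0857 from day 1 alone).

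With ANX the median was -0.80, and 9 of 19 were lower and none higher, beside 9.12% and 11.2% of all tested genes. That count was 4 when replicate 1 of control day 1, replicate 2 of control day 2, or replicate 1 of either ANX day was left out, and 6 to 8 without any other array. Rarb differed by -1.48 (SE 0.25, adjusted p = 0.000264), Aspn by -2.72 (SE 0.52, adjusted p = 0.000722, floored -1.49; -2.05 and adjusted p = 0.0908 from day 1 alone) and the homeobox gene Meis1 by -0.73 (SE 0.16, adjusted p = 0.00243; -0.70 and adjusted p = 0.0685 from day 2 alone). The low levels of Foxp2, Bnc2 and Capn6 stood beside these, and no comparison of the members with the list was tested.

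Against NGAL on days 3 to 7, where 39% (LIF; 20.3% higher, 18.7% lower) and 36% (ANX; 21.2% higher, 14.8% lower) of all tested genes were called, 15 of 19 stromal genes were lower with LIF (median -1.33) and 15 with ANX (median -1.46), beside medians of 0.04 and 0.05 over all genes. Aspn differed by -4.03 with LIF (SE 0.37, adjusted p = 3.02e-07) and -4.08 with ANX (SE 0.37, adjusted p = 1.34e-07), but its LIF and ANX means of 4.28 and 4.24 lay under the threshold, and both differences were -2.53 when floored. Col1a2 (-2.15, SE 0.24, adjusted p = 9.41e-07) and the basic helix-loop-helix gene Twist1 (-1.57, SE 0.21, adjusted p = 6.5e-06, floored -0.97) followed with LIF. Tcf21 (0.58, SE 0.14, adjusted p = 0.00298), a stromal and progenitor transcription factor, and Twist2 (0.81, SE 0.18, adjusted p = 0.00122, floored 0.12) were higher with ANX.

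**Figure D3:**
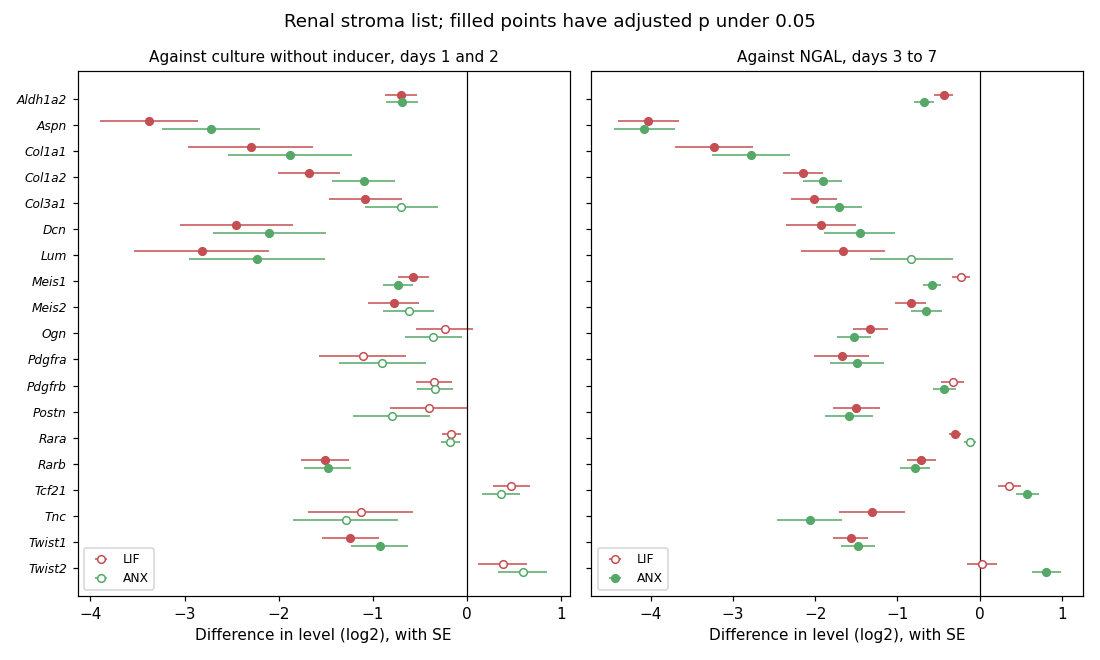
Differences in level (log2, with SE) of the 19 measured genes of the renal stroma list for LIF and ANX against culture without inducer on days 1 and 2 (left) and against NGAL on days 3 to 7 (right), with filled points for adjusted p under 0.05. On the left 11 genes are called lower with LIF and 9 with ANX, and on the right 15 with each, with Tcf21 and Twist2 called higher with ANX.

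Markers of other mesenchymal and non-renal cells also differed between these cultures. The shares of all tested genes called in these contrasts, given above, are the background for the counts below. The summed intensity of 9 skeletal muscle genes was 1486 to 1517 in fresh tissue, 2424 to 4609 in control, 4007 to 26921 with NGAL on days 3 to 7, 2884 to 9796 with LIF and 2505 to 5100 with ANX. All 9 were lower with LIF than with NGAL (median -2.77) and all 9 with ANX (median -3.22), and these counts were the same when any single array was left out. Myog, a myogenic factor, differed by -2.86 with LIF (SE 0.44, adjusted p = 2.94e-05) and -3.22 with ANX (SE 0.44, adjusted p = 1.17e-05), and Tnnt1, a slow-fibre troponin, by -3.46 with ANX (SE 0.43, 8 arrays against 8, adjusted p = 4.73e-06, floored -2.12). The differences of the members from NGAL on days 3 to 7 stand beside this one, and the part of muscle cells in them was not tested. Against control on days 1 and 2, limma called 1 of 9 muscle genes lower with LIF and 0 with ANX (medians -0.94 and -0.91), and the LIF call remained only without control day 2 replicate 1 when single arrays were left out.

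The list of ureteral mesenchyme and smooth muscle, the tissue that Tbx18 marks, had 10 measured genes. Against control 2 were lower and 1 higher with LIF, and 3 lower and 1 higher with ANX (2 lower and 0 to 2 higher without any 1 array, with 0 higher when replicate 1 of any control or ANX day was left out). Tshz3, a regulator of ureteric smooth muscle, differed by -1.04 with ANX (SE 0.15, adjusted p = 4.41e-05) and by -0.68 with LIF (SE 0.15, adjusted p = 0.00176; -0.34 and adjusted p = 0.298 from day 2 alone). Bmp4, a signal of the ureteral mesenchyme, was higher with LIF than in control by 1.00 (SE 0.22, adjusted p = 0.00221). Control itself was lower in Bmp4 than fresh tissue, by -1.43 on day 1 (SE 0.31, limma adjusted p = 0.00655) and -1.46 on day 2 (SE 0.31, adjusted p = 0.00199). Against NGAL 3 were lower with LIF, and 4 were lower and 1 higher with ANX (0 to 1 higher without single arrays), among them the smooth muscle gene Tagln at -2.62 (SE 0.39, adjusted p = 1.68e-05) and -2.54 (SE 0.39, adjusted p = 3.21e-05). The summed level on days 3 to 7 was 3119 to 11063 with NGAL, 1914 to 3312 with LIF and 1869 to 3265 with ANX, and its part in the level of Tbx18 was not tested.

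Endothelial genes (9 measured) summed to 2545 to 2578 in fresh tissue, 1338 to 2790 in control, 741 to 1332 with LIF and 1030 to 1748 with ANX on days 1 and 2. Against control 5 were lower with LIF, and 4 were lower and 2 higher with ANX. The LIF count was 3 without replicate 1 of control day 1, LIF day 1 or LIF day 2, or without replicate 2 of control day 2. The macrophage list (4 measured) summed to 294 to 442 in control, 298 to 338 with LIF and 285 to 310 with ANX on days 1 and 2. Its defining genes Csf1r and Ptprc were below the threshold in every group. Against control 1 of its 4 genes was lower with LIF and 2 with ANX, and 0 of 4 without control day 1 replicate 1 (limma). Over all single arrays left out the counts were 0 to 2 with each. The part of endothelial and macrophage RNA in the members' levels was not tested.

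**Figure D4:**
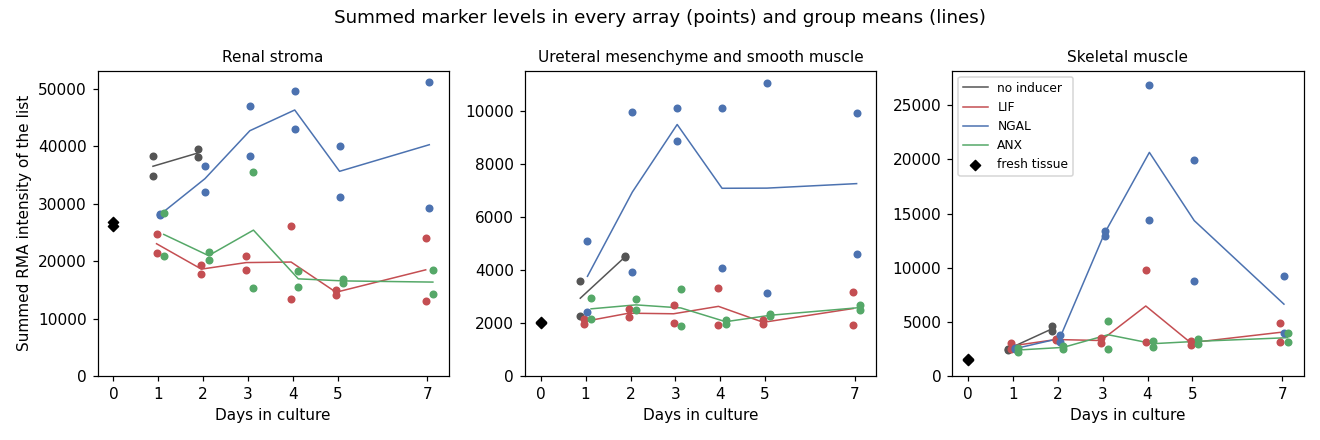
Summed RMA intensity of 3 marker lists (linear axis from 0) against days in culture, with 1 point per array, lines through group means and diamonds for fresh tissue. From day 3 the NGAL group means are above the LIF and ANX means in each panel, with renal stroma arrays at 29311 to 51257 with NGAL, 12977 to 26206 with LIF and 14235 to 35558 with ANX, so 1 ANX array lies within the NGAL range.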

How the data were processed

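The deposited intensity values, 1 column for each of the 42 arrays, were made by the authors with robust multichip analysis (RMA), per the labels' series design and the submitters' processing notes, which give no version. The deposited values ran from 7.6 to 17972 and are linear, so log2 was taken here. The platform table named 1 gene for 20832 of 31099 probe sets, several for 436 and none for 9831. The probe set with the highest mean stood for its gene, and genes were tested when their highest group mean exceeded the 40th percentile (log2 5.79). Arrays have no read depth, and their number, 2 per group, limits the precision.

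A mean per group was fitted over all 42 arrays with R 4.3.3 and limma 3.58.1 (21 residual degrees of freedom, empirical Bayes with a trend), with Benjamini-Hochberg adjustment. The code was tested on simulated data. The members and the 13 gene lists were chosen with earlier results of these data known. Genes were named by rule: the members, their measured relatives, the 3 genes most correlated with each member over the 21 group means, and up to 3 called genes per list, direction and comparison. Alternatives were other filters, normalizations and variance priors, the replicate block, the dap ratio as a covariate, single days and leaving out each array; the alternatives with single or exchanged days were chosen after seeing the data.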

Additional observations from a re-analysis of the deposited data

Results flagged for a closer look

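Tbx18 on day 1 stood out because the LIF and ANX arrays moved in opposite directions from the same control arrays. Both LIF arrays (7.76 and 7.53) were above the mean of the control day 1 arrays, by 0.67 on average (SE 0.32). Both ANX arrays (6.80 and 6.57) were below it, by -0.30 (SE 0.32), a difference smaller than its SE. The gap between the changes is 0.96 on the log2 scale, and the difference was not tested.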

How the results depend on the processing

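Leaving out any 1 array kept the differences of Foxp2, Bnc2 and Capn6 from control on days 1 and 2 between -3.77 and -2.26 with LIF and ANX. Counts of called genes moved more: without 1 array they ranged from 180 to 504 for control day 1 against fresh (690 in full), 917 to 1185 for control day 2 (2527), 0 to 15 for NGAL against control (0), 529 to 2151 for NGAL day 7 against day 1 (1767), 1 to 149, 50 to 277 and 31 to 444 for days 5 and 7 against 3 and 4 with LIF, NGAL and ANX (19, 126 and 143), 0 to 4, 0 to 16 and 0 to 5 for the LIF minus NGAL, ANX minus NGAL and LIF minus ANX changes (0, 3 and 1), 1528 to 2842 and 1115 to 2579 for LIF and ANX against control (2733 and 2309), and 88 to 699 for LIF against ANX (257). Bnc2 in control day 2 ranged from 2.70 to 2.98 and Tbx18 in NGAL day 7 against day 1 from -1.83 to -0.90. Directions that turned without 1 array were all of uncalled differences: Foxp2 in control day 1 (-0.72 to 0.36) and day 2 (-0.61 to 0.03), Tbx18 with NGAL against control (-0.33 to 0.13), late against middle days for Foxp2 and Bnc2 with LIF (-0.55 to 0.28 and -0.73 to 0.12) and ANX (-0.31 to 0.37 and -0.97 to 0.04) and for Bnc2 with NGAL (-1.14 to 0.04), LIF against ANX for Foxp2 (-0.23 to 0.18), Tbx18 (-0.09 to 0.18) and Capn6 (-0.91 to 0.00), the Capn6 LIF minus ANX change (-1.68 to 0.16), and Foxp4 with LIF against control (-0.21 to 0.19). Foxp4 there was also 0.03 after quantile normalization and 0.31 on day 2 alone. With the dap ratio in the fit the counts were 1673 for control day 2, 29 and 233 for late days with LIF and ANX and 6 for the ANX minus NGAL change, and Foxp2 in late ANX was -0.02. NGAL against control called 1 gene without the filter, 1 with the mean of probe sets and 2 from day 1 alone; the ANX minus NGAL change called 1 under the stricter filter and the LIF minus ANX change 2 without a filter. Single days called 949 and 927 (LIF) and 740 and 599 (ANX) genes on days 1 and 2. Setting control day 2 against control day 1 called 1 gene, with Bnc2 at 1.30 and Tbx18 at -1.08, and NGAL day 2 against day 1 called 0 (limma), with Tbx18 at -1.02. The cause of these changes was not tested, except that single days and left-out arrays use fewer samples. Each member has 1 probe set, so the mean of probe sets left its value as it was. Replicate numbers are shared between groups, but over all tested genes the deviations of same-numbered arrays correlated above 0.1 in only 88 of 210 pairs of groups (-0.646 to 0.742, median 0.0652), so the numbers were not taken to pair the arrays, although replicate 2 was the higher one in 18 of 21 groups for Capn6 and 15 of 21 for Foxp2. With the number as a replicate block, late days called 194 genes with NGAL and 244 with ANX, and Tbx18 in control day 1 (-1.04, adjusted p = 0.0439), Capn6 in NGAL day 7 against day 1 (1.99, 0.0312) and Capn6 in late ANX (1.69, 0.0481) passed. Signal near background limits Foxp2 and Tbx18, with 12 and 13 of 21 group means below the threshold.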

Other observations

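Of 9 early nephron genes 4 were higher with LIF and 3 with ANX than in control on days 1 and 2, and none was lower, beside 11.4% and 11.2% of all tested genes called higher. Leaving out single arrays gave 3 with LIF and 2 to 3 with ANX. The summed intensity of these 9 genes was 2380 to 2552 in fresh tissue and lower, 757 to 1273, in control. On days 1 and 2 it was 1479 to 2753 with LIF and 1285 to 2560 with ANX. Jag1, a Notch ligand of the early nephron, was higher with LIF than in control by 1.80 (SE 0.26, limma adjusted p = 4.83e-05). Epcam, an epithelial adhesion molecule, rose from days 3 and 4 to days 5 and 7 by 2.54 with NGAL (SE 0.36, limma adjusted p = 0.000373, floored 2.12) and by 2.48 with ANX (SE 0.36, adjusted p = 0.000936), over the days on which Capn6 differed by -0.40 and 1.69. Of 10 nephron progenitor genes 1 was higher with LIF and 0 with ANX than in control by limma (1 to 3 and 0 to 2 when single arrays were left out), and against NGAL on days 3 to 7, 4 were higher and 1 lower with LIF and 7 higher with ANX.

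Between day 1 and day 7 of NGAL culture 5 of 19 stromal list genes were higher and 2 lower, beside 6.92% and 8.6% of all tested genes, and 2 to 4 higher and 0 to 1 lower when any single array was left out. Ogn, a matrix proteoglycan, rose by 2.51 (SE 0.43, limma adjusted p = 0.00041, floored 1.47; 0.10 and adjusted p = 0.956 from day 1 to day 2). From fresh tissue to control day 2, 3 of 19 stromal genes were higher and 1 lower (1 and 1 without any 1 of the 4 arrays), and 4 of 9 skeletal muscle genes were higher (1 of 9 without any 1 of the 4 arrays), with Tnnc1, a troponin, up by 2.23 (SE 0.29, adjusted p = 1.39e-05).

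The remaining lists were small. Of 4 ureteric bud genes none passed against control, and Calb1 was below the threshold in every group. Of 3 neuron and Schwann cell genes 2 were higher with LIF and 1 with ANX than in control, with Stmn2 and Foxd3 below the threshold in every group, and of 5 cartilage genes 1 was higher with LIF and 0 with ANX by limma. Leaving out single arrays gave 1 to 2 (LIF) and 0 to 1 (ANX) for the neuron and Schwann cell list and 0 to 1 for cartilage with LIF. The LIF neuron count stayed at 2 only without control day 1 replicate 2, the ANX call remained without replicate 2 of control day 1 or ANX day 1 or replicate 1 of ANX day 2, and the cartilage call without replicate 2 of control day 1 or LIF day 2.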
